A study of Mus musculus with 6 samples.

Results

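Galectins are lectins, proteins that read sugars. They bind galactose-containing chains, above all the N-acetyllactosamine units that accumulate on branched N-glycans, and are released from cells or stay in the cytosol. Outside the cell they cross-link glycoproteins such as CD45 and TIM-3 into lattices, and in tumors they are known for restraining T cells. A set of 5 genes was followed here, taken by their symbols, and all 5 were found among the 32285 genes counted. Lgals1 encodes galectin-1, a dimer that can kill activated T cells. Lgals3 encodes galectin-3, whose flexible tail lets it form oligomers. Lgals8 and Lgals9 each encode a lectin with a pair of sugar-binding domains, of which galectin-8 marks damaged vesicles and galectin-9 has been described as a ligand of TIM-3, the product of Havcr2. Lgals3bp encodes a secreted glycoprotein that galectin-3 binds, and is no lectin itself.

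Single cells of 6 mice were sequenced, 1 mouse in each of 6 groups: a vehicle control, single treatment with 2DG, with 2FF or with anti-PD-L1, and the pairings 2FF plus anti-PD-L1 and 2DG plus anti-PD-L1. According to the methods of the study they came from orthotopic tumors that KPCA cells, a single mouse ovarian cancer line with intact homologous recombination, mutant p53 and added Ccne1 and Akt2, had formed in female C57BL/6 mice aged 6 to 8 weeks. The sample labels instead give lymph node as the tissue. The design text of the series mentions young and aged animals, while the methods give the 1 age range above. 2DG (2-deoxy-D-glucose) is a glucose and mannose analog that lowers N-glycosylation as well as glycolysis, and was injected every 2 days from day 9. 2FF (2F-peracetyl-fucose) is a fucose analog that blocks fucosylation, was given by gavage every 2 days, and had also been applied to the tumor cells before injection. The anti-PD-L1 antibody, which blocks a ligand of the T cell checkpoint PD-1, was given at 5 mg/kg 2 times a week after day 9. The control mouse received solvent and an isotype antibody, and all mice were sacrificed on day 30. Comparisons with 2DG and with 2FF reuse the same control library and the same library of anti-PD-L1 alone. With 1 mouse per group there is no replicate within a treatment, and differences between treatments were not tested. A treatment cannot be told apart from the mouse and its library preparation. The 6 libraries do serve as replicates for comparisons between kinds of cells within a library.

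Lgals1 (ENSMUSG00000068220) lies on chromosome 15 at 78926725 to 78930465 of GRCm38, on the plus strand, and Lgals3 (ENSMUSG00000050335) on chromosome 14 at 47367751 to 47386160, also on the plus strand. On the minus strand lie Lgals8 (ENSMUSG00000057554) on chromosome 13 at 12439415 to 12464944, Lgals9 (ENSMUSG00000001123) on chromosome 11 at 78962974 to 78984946, and Lgals3bp (ENSMUSG00000033880) on chromosome 11 at 118392751 to 118402092. All 5 are protein-coding. Lgals8 overlaps Heatr1, which runs on the other strand, and no other gene of the files overlaps a member. The strand setting of the counting is not given in the sources used here, so reads of Lgals8 and Heatr1 may not be fully separated.

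The promoters of Lgals9 and Lgals3bp are shown because these genes differed most between monocytes with high and low interferon responses, as described further on. Each RefSeq window (GRCm38.p6) runs from 250 bases before to 50 bases after the annotated start, in the direction of the gene. Capitals mark the interferon-response motif, 2 GAAA boxes with any 2 bases between them, searched on both strands. In the Lgals9 window it occurs 2 times, both on the opposite strand, so that it reads TTTC, 2 bases, TTTC here. The first match lies before and the second after the annotated start. In the Lgals3bp window it does not occur in this form.
Lgals9, chr11:78984875-78985174, minus strand: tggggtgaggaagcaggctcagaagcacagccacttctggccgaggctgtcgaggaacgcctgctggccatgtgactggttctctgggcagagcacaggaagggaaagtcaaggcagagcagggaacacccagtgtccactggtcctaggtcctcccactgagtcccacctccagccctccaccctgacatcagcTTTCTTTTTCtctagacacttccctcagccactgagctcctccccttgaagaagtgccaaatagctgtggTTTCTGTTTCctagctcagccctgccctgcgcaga
Lgals3bp, chr11:118401910-118402209, minus strand: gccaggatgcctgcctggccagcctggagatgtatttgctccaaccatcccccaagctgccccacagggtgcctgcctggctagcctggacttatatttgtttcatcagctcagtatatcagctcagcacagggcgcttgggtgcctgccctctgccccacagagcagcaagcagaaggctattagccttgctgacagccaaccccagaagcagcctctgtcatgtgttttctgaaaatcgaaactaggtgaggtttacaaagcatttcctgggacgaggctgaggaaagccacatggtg
Of 32851 promoter windows of 300 bases, 3.44% held this motif. The STAT motif TTCNNNGAA was held by 8.30% of them. Windows were on hand for 4 of the 5 genes, and neither motif occurred in those of Lgals3 and Lgals8. A match describes letters and does not show that a factor binds.

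In all, 57078 cells were deposited, of which 51633 had at least 250 genes and at most 5% mitochondrial UMIs (unique molecular identifiers, each counting 1 captured RNA molecule). The libraries held 61859753 to 73885214 UMIs, and 7703 to 9222 cells per library were kept. Cells were sorted into classes by marker genes that did not include a galectin, which placed 46174 cells and left 9.25% to 12.5% of a library unassigned. In 35.7% to 43.4% of the cells at least 3 markers of another lineage also had a UMI. Any 2 libraries shared 12 to 27 cell barcodes, or 0.154% to 0.320% of the smaller library. The control library stood apart in its makeup, with 3337 neutrophils and 2717 classical monocytes but only 123 CD8 T cells, 84 Treg cells and 84 B cells. Of the lymph node stroma genes, Ccl21a had 1 UMI, Madcam1 5 and Ccl19 13 over all kept cells, while Cxcl13 had 759 UMIs, Cr2 1279 and Pdpn 30170. The 12 classes with at least 30 cells in every library form the comparisons that follow. Levels are in CPM, the UMIs of a gene per 1000000 UMIs of a class in a library.

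Over all kept cells, 241834 UMIs belonged to Lgals1, 295252 to Lgals3, 23578 to Lgals8, 40588 to Lgals9 and 28542 to Lgals3bp. Macrophages and monocytes, 35.4% to 50.2% of the kept cells of a library, held 67.0% to 78.0% of the Lgals3 UMIs. Of the Lgals1 UMIs they held 73.9% in the control library and 30.8% to 39.2% in the 5 treated ones. T cells held 40.6% to 52.3% of the Lgals1 UMIs in the 5 treated libraries and 6.69% in the control library, where T cells were 4.80% of cells. Neutrophils were 36.8% of cells in the control library and 3.01% to 5.44% in the 5 treated ones. In the control library they held 30.6% of the Lgals8 and 30.4% of the Lgals9 UMIs, below their share of cells. The medians over the 6 libraries were 2.76% and 3.41%. Shares of cells take no account of depth. In the control library neutrophils had a median of 3798 UMIs, against 10289 in classical monocytes and 12122 in macrophages. Setting a share of UMIs beside a share of cells therefore does not describe the level of a gene.

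**Figure D1:**
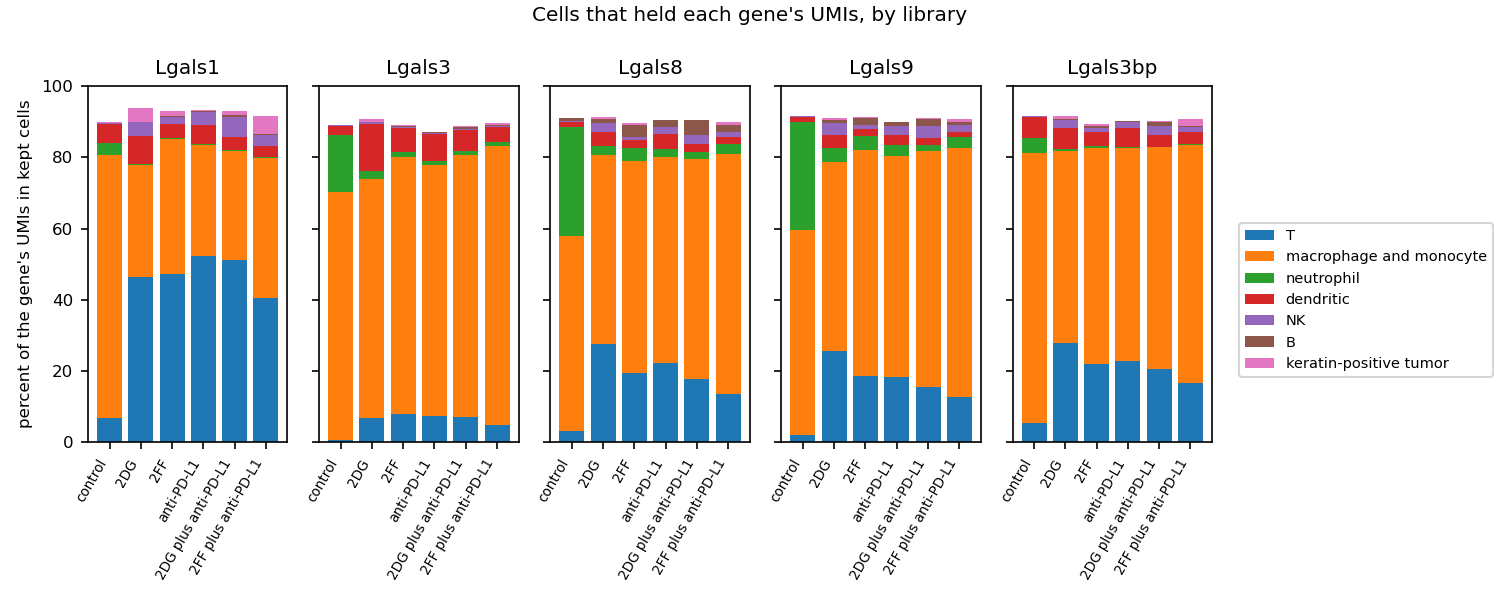
Percent of each gene's UMIs (vertical axis) held by each kind of cell, as stacked bars for the 6 libraries (horizontal axis), with 1 panel per gene; the part missing to 100% lies in unassigned and rarer cells. T cells, 4.80% of the cells of the control library, hold 6.69% of its Lgals1 UMIs, and neutrophils, 36.8% of its cells, hold 30.6% of its Lgals8 UMIs. Shares of cells take no account of the UMIs per cell.

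Among the 12 classes Lgals1 was on average highest in CD8 T and Treg cells. In CD8 T cells it stood at 823 CPM in control, 1004 in 2DG, 1059 in 2FF, 1268 in anti-PD-L1, 1155 in 2DG plus anti-PD-L1 and 1103 in 2FF plus anti-PD-L1. Treg cells (regulatory T cells, Foxp3-positive) ranged from 537 to 1255 CPM and conventional CD4 T cells from 456 to 1127 CPM, with the control library lowest in both. NK cells, which reached 30 cells in 5 libraries, ranged from 887 to 960 CPM there, and plasmacytoid dendritic cells from 1228 to 1350 CPM in the 3 libraries that held 30 of them. Macrophages had 596 to 757 CPM, cDC2 cells 405 to 477 CPM, cDC1 cells 251 to 554 CPM and classical monocytes 334 to 483 CPM. The lowest levels were those of non-classical monocytes at 36.1 to 104 CPM and of neutrophils at 33.3 to 101 CPM, so no library of either class overlapped the range of macrophages. These classes were picked as the lowest, and the share of all genes without such overlap was not computed. In the order of the 12 classes by mean log2 level, Treg cells exceeded conventional CD4 T cells by 0.24 ± 0.09 (SD of log2 differences, n = 6 libraries) and classical monocytes exceeded mature dendritic cells by 1.41 ± 0.72, each in 6 of 6 libraries. The adjusted p of both was 0.138 in the two-sided exact permutation test over sign flips.

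Classical monocytes, the Ly6c2-positive inflammatory monocytes, had the highest Lgals3 level in every library. They stood at 2087 CPM in control, 909 in 2DG, 1264 in 2FF, 1126 in anti-PD-L1, 1139 in 2DG plus anti-PD-L1 and 1124 in 2FF plus anti-PD-L1. The control library was thus well above the others, which lay close together. Macrophages had 738 to 1073 CPM, cDC1 cells (cross-presenting dendritic cells) 606 to 1135 CPM and cDC2 cells 561 to 787 CPM. T and B cells were lower throughout, at 54.2 to 291 CPM over all 5 of these classes and libraries. Monocytes exceeded macrophages by 0.44 ± 0.31 and neutrophils exceeded mature dendritic cells by 1.09 ± 0.20 on the log2 scale, each in 6 of 6 libraries (exact permutation test, adjusted p = 0.0859). Mature dendritic cells exceeded CD8 T cells by 0.51 ± 0.24 and other T cells exceeded Treg cells by 0.28 ± 0.29, with the same adjusted p from the exact permutation test.

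RNA that floats free in the droplets can give UMIs to cells that do not make it, so the Lgals3 level of lymphocytes was set beside that of other myeloid genes. The Lgals3 level of B cells was 5.70% to 11.4% of that of classical monocytes and that of CD8 T cells 11.8% to 15.2%. For Lyz2, a lysozyme gene of myeloid cells, the same shares were 2.43% to 4.24% and at most 3.11%. For Spp1, relative to macrophages, they were 1.84% to 13.9% and 4.90% to 17.7%. For Apoe, also relative to macrophages, they were 4.58% to 11.3% and 0.623% to 2.37%, and for C1qa 0.462% to 3.79% and 0.524% to 1.90%. For S100a9, relative to neutrophils, they were at most 0.505% and 0.254%. The Lgals3 shares of CD8 T cells were thus above those of every gene but Spp1. Those of B cells overlapped the shares of Spp1 and Apoe and were above the shares of Lyz2, C1qa and S100a9. A UMI of Lgals3 was found in 92.3% to 96.4% of classical monocytes and in 12.7% to 25.0% of B cells, or in 52.4% to 77.5% and 3.62% to 13.2% after thinning to 1000 UMIs per cell. The genes set beside Lgals3 differed from each other. Expression of Lgals3 by lymphocytes was not tested and is not read from these levels.

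Lgals8 and Lgals9 were both on average highest in classical monocytes and, next to them, in neutrophils. Lgals8 was at 67.6 to 107 CPM in classical monocytes and 55.2 to 86.6 CPM in neutrophils, and Lgals9 at 146 to 181 CPM and 108 to 176 CPM. The lowest levels of both were those of cDC1 cells and mature dendritic cells, the latter being the Ccr7-positive ones that migrate and prime T cells. Lgals8 had 1.92 to 16.0 CPM in cDC1 cells and 3.06 to 12.8 CPM in mature dendritic cells, on 48 and 44 UMIs over all libraries. Lgals9 had 2.04 to 12.1 CPM in mature dendritic cells and 19.3 to 33.6 CPM in cDC1 cells. In the order of classes, cDC2 cells exceeded mature dendritic cells in Lgals8 by 1.64 ± 0.60 on the log2 scale in 6 of 6 libraries (exact permutation test, adjusted p = 0.229). For Lgals9, macrophages exceeded other T cells by 0.88 ± 0.22, cDC2 cells exceeded cDC1 cells by 0.63 ± 0.39 and cDC1 cells exceeded mature dendritic cells by 1.32 ± 0.77, each in 6 of 6 libraries (exact permutation test, adjusted p = 0.115).

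Lgals3bp was highest in macrophages. It stood there at 82.0 CPM in control, 104 in 2DG, 123 in 2FF, 128 in anti-PD-L1, 161 in 2DG plus anti-PD-L1 and 131 in 2FF plus anti-PD-L1. Classical monocytes had 47.9 to 108 CPM, CD8 T cells 52.1 to 69.3 CPM, neutrophils 7.17 to 19.6 CPM and B cells 4.69 to 21.8 CPM. Macrophages exceeded classical monocytes by 0.47 ± 0.19 and cDC1 cells exceeded neutrophils by 0.94 ± 0.35 on the log2 scale, in 6 of 6 libraries (exact permutation test, adjusted p = 0.172). Over the 5 genes, 12 of 55 neighbouring pairs had 1 sign in all 6 libraries, which gives the smallest p that 6 libraries allow, 0.03125. None of the 55 stayed under 0.05 after adjustment over the pairs of a gene. With this smallest p, a pair could pass only if most pairs of its gene also had 1 sign. The test therefore does not settle the order of neighbours and does not show that they are alike. The order was taken from the same values, and the share of all genes with 1 sign was not computed.

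**Figure D2:**
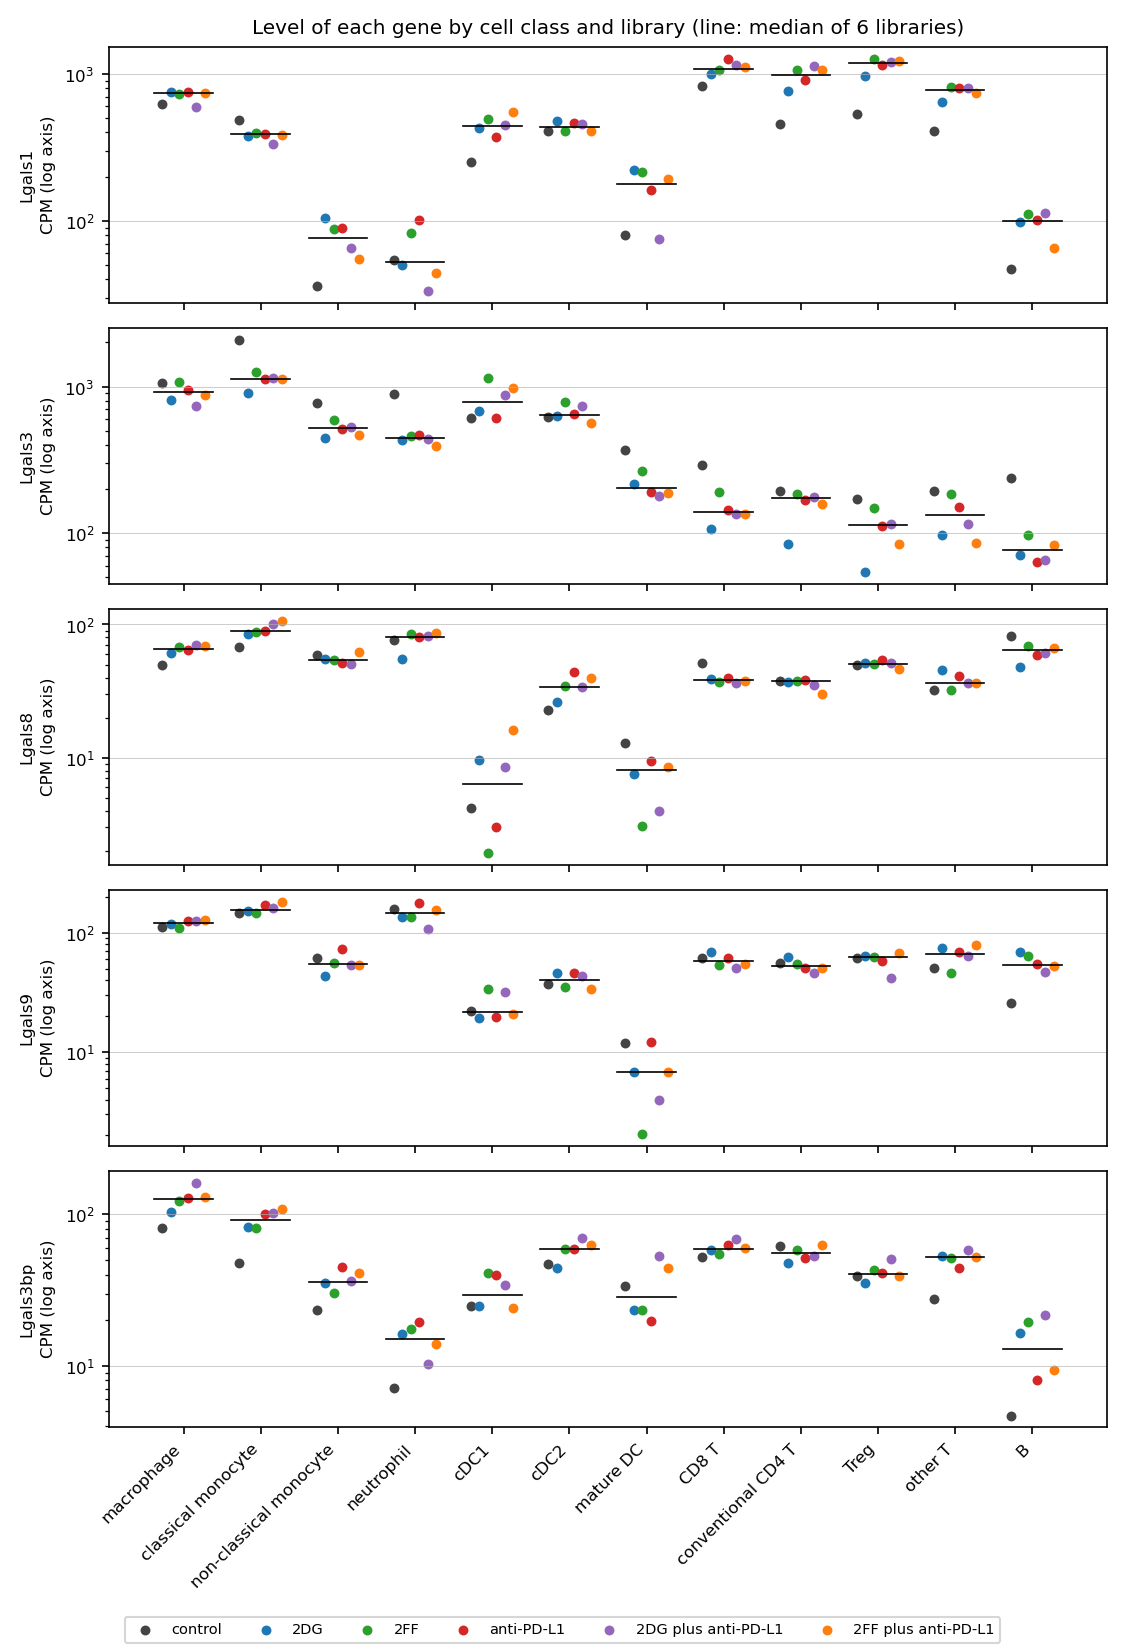
Level of the 5 genes in CPM on a log axis (1 panel per gene) in the 12 classes along the horizontal axis, 1 point per library with the median as a line. Lgals1 is highest in CD8 T and Treg cells, Lgals3 in classical monocytes with the control library at 2087 CPM, and Lgals8 and Lgals9 are lowest in mature dendritic cells (Lgals9 2.04 to 12.1 CPM) and, for Lgals8, in cDC1 cells (1.92 to 16.0 CPM).

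Keratin-positive cells were too few for a comparison, with 84 over all libraries and 2 in control. Summed over the libraries they had 1130.3 CPM of Krt18, 220.3 of Wfdc2 and 190.1 of Epcam, markers of the ovarian epithelium and its tumors, but 0 UMIs of Cldn7. They had 60.4 CPM of Cldn3, 59.9 of Cdh1, 46.7 of Msln and 7.14 of Cldn4. Of the genes added to KPCA cells, Akt2 stood at 55.5 CPM and Ccne1 at 29.1. Some immune classes had more Akt2, among them CD8 T (68.3 CPM) and NK cells (70.0). More Cdh1 was found in cDC2 (117 CPM) and plasmacytoid dendritic cells (127). Ccne1 was lower in all immune classes, and Cldn3, Cldn4 and Msln were barely detected there. The keratin-positive cells also carried 64.8 CPM of Ptprc, the leukocyte gene that encodes CD45. Their Lgals1 level was 2638 CPM (95% Poisson interval 2564 to 2714), their Lgals3 level 293 (269 to 319), their Lgals3bp level 111 (96.2 to 127), their Lgals9 level 66.5 (55.2 to 79.4) and their Lgals8 level 39.0 (30.5 to 49.2). The intervals cover counting error only. In the 2FF library, the only one with 30 of these cells, Lgals1 stood at 1833 CPM and Lgals3 at 371 CPM. The pooled Lgals1 value lies above that of every immune class and library named above.

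Subsets of a class were compared within each library. CD8 T cells with a UMI of Havcr2, the gene of the inhibitory receptor TIM-3, were set against CD8 T cells with a UMI of Tcf7, a factor of naive and stem-like T cells, and none of Havcr2. Lgals1 in the Havcr2-positive cells stood at 1141 CPM in control, 1307 in 2DG, 1214 in 2FF, 1491 in anti-PD-L1, 1331 in 2DG plus anti-PD-L1 and 1284 in 2FF plus anti-PD-L1. In the Tcf7-positive cells it stood at 221, 435, 556, 578, 569 and 545 CPM in the same order. The groups did not overlap, and the difference was 1.47 ± 0.45 on the log2 scale, positive in 6 of 6 libraries. The other 4 genes did not keep 1 sign in this comparison. The control library held only 19 Tcf7-positive cells. Median depth over the libraries was 6779 to 9017 UMIs in the Havcr2-positive and 5261 to 8301 UMIs in the Tcf7-positive cells. The part of depth in the Lgals1 difference was not tested.

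Cycling CD8 T cells also had more Lgals1, at 1464 to 2031 CPM against 634 to 1078 CPM in the other CD8 T cells. The difference was 0.94 ± 0.34 on the log2 scale, positive in 6 of 6 libraries. Lgals8 went the other way, at 24.5 to 36.2 CPM against 38.2 to 53.6 CPM, a difference of -0.57 ± 0.08. Lgals3 (-0.77 ± 0.63) and Lgals9 (-0.24 ± 0.16) were also lower in the cycling cells of all 6 libraries. Cycling cells were deeper, with a median of 11526.5 to 14782 UMIs against 5739 to 7655, and the control library held 8 of them. The part of depth in these differences was not tested.

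Macrophages with a UMI of Spp1, which encodes osteopontin, had more Lgals3 than macrophages with a UMI of Mrc1, the mannose receptor gene, and none of Spp1. Lgals3 stood at 1198 CPM against 488 in control, 964 against 524 in 2DG, 1209.9 against 801 in 2FF, 1112 against 676 in anti-PD-L1, 824 against 661 in 2DG plus anti-PD-L1 and 982 against 652 in 2FF plus anti-PD-L1. The difference was 0.73 ± 0.33 on the log2 scale, largest in control, and that of Lgals1 was 0.43 ± 0.15, both positive in 6 of 6 libraries. The Lgals9 difference of 0.06 ± 0.08 and the Lgals3bp difference of -0.02 ± 0.14 had mixed signs. The Spp1 macrophages had median depths of 9415.5 to 13186 UMIs and the Mrc1 macrophages of 8802.5 to 11774 UMIs. Any part of depth, or of free Spp1 RNA in the choice of these cells, was not tested. Treg cells exceeded conventional CD4 T cells in Lgals8 by 0.44 ± 0.07 and were below them in Lgals3 (-0.52 ± 0.25) and Lgals3bp (-0.39 ± 0.21), again in 6 of 6 libraries.

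Over these 4 pairs of subsets and 5 genes, 11 of 20 differences had 1 sign in all libraries and an unadjusted p of 0.03125 in the two-sided exact permutation test over sign flips, the smallest it allows. Their adjusted p was 0.0568, so none of the 20 passed 0.05. The share of all genes with 1 sign or without overlap in these comparisons was not computed, so the counts do not set the members apart. Without cells that held at least 3 markers of another lineage, the Lgals3 difference was -1.55 for cycling against other CD8 T cells. It was 1.10 for Spp1 against Mrc1 macrophages and -0.84 for Treg against conventional CD4 T cells. Differences no longer of 1 sign then were those of cycling cells in Lgals9 (-0.13) and Lgals8 (-0.54) and of Treg cells in Lgals1 (0.18). With equal weight of cells, the Lgals3 difference of Treg cells (-0.51) was no longer of 1 sign either. Lgals3 levels of T cells are, as above, not read as their expression.

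Classical monocytes were further split by 8 interferon-stimulated genes (Ifit1, Ifit2, Ifit3, Isg15, Rsad2, Irf7, Oasl1 and Cmpk2), a comparison chosen after the levels by class had been seen. Cells with at least 4 of these genes detected are called interferon-high and cells with at most 1 interferon-low. Lgals9 in interferon-high cells stood at 259 CPM in control, 279.8 in 2DG, 241 in 2FF, 297 in anti-PD-L1, 255 in 2DG plus anti-PD-L1 and 252 in 2FF plus anti-PD-L1. In interferon-low cells it lay between 105 and 119.7 CPM in all 6 libraries. Lgals3bp stood at 122 to 184 CPM against 27.1 to 75.8 CPM. Neither gene's groups overlapped, and the log2 differences were 1.18 ± 0.08 for Lgals9 and 1.31 ± 0.36 for Lgals3bp. Lgals8 was higher by 0.62 ± 0.16 and Lgals3 by 0.24 ± 0.09, also in 6 of 6 libraries, and Lgals1 differed by -0.15 ± 0.15 with mixed signs. In the two-sided exact permutation test the 4 genes had an adjusted p of 0.0391 over the 5 genes of this comparison, and 0.0521 when its 5 tests were put in 1 family with the other 20, so that none passed 0.05 there. Median depth was alike in both subsets, at 6689.5 to 10332 and 6420.5 to 10289 UMIs. How many other genes separated these subsets was not counted. In the Lgals9 window shown above the interferon-response motif reads TTTCTTTTTC and TTTCTGTTTC on the gene's strand. The Lgals3bp window lacks the motif in this form, and other spacings of the 2 GAAA boxes were not searched. Any part of the motif in the differences of Lgals9 and Lgals3bp was not tested.

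**Figure D3:**
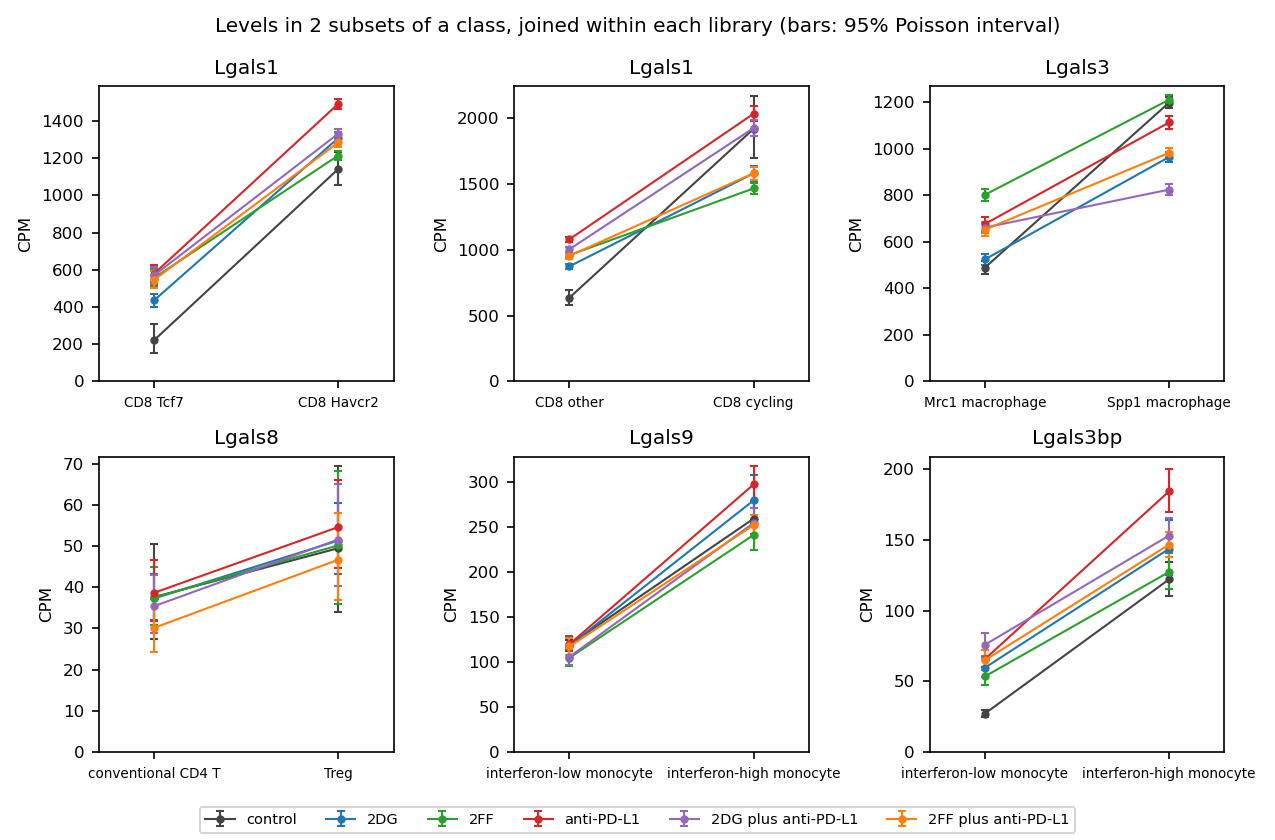
Level in CPM (vertical axis, from 0) in 2 subsets of a class (horizontal axis), 1 line per library and 95% Poisson intervals as bars, for 6 combinations of gene and subset pair. Every line rises, and the Lgals9 lines run from 105 to 119.7 CPM up to 241 to 297 CPM.

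The question of how the treatments bear on these genes was addressed by ratios of CPM + 5 between libraries, class by class. A ratio counted as higher or lower from 1.5-fold on, with at least 50 UMIs in both libraries together and at least 30 cells in each. Over control, 11 of 56 gene and class pairs of the members were higher and 10 lower with 2DG, against 9.16% higher and 7.14% lower among all genes. With 2FF 13 of 56 were higher and 4 lower, against 11.5% and 8.64%, and with anti-PD-L1 15 of 56 were higher and 7 lower, against 9.89% and 7.40%. The shares of the members called were thus above those of all genes except for the lower calls with 2FF. Lgals1 gave 7, 7 and 8 of the higher calls with 2DG, 2FF and anti-PD-L1, and Lgals3 gave 9, 4 and 6 of the lower ones. Lgals8 had at most 1 call in each, so the shares do not describe the members alike. The genes set beside the members were not matched to them in level. These 3 comparisons share the control library and are not independent.

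Against control, Lgals1 was higher and Lgals3 lower in most of the classes where they were called. The control library had the lowest Lgals1 level of the 6 libraries in 7 of 12 classes and the highest Lgals3 level in 9 of 12, while 28.5% of all gene and class pairs had control lowest and 24.9% had it highest. Lgals1 was higher in Treg cells by 0.83, 1.22 and 1.10 on the log2 scale with 2DG, 2FF and anti-PD-L1, and in conventional CD4 T cells by 0.73, 1.22 and 0.99. In CD8 T cells the log2 ratios over control were 0.29, 0.36 and 0.62, of which only that of anti-PD-L1 was called. The Havcr2-positive CD8 T cells of control had 1141 CPM against 1214 to 1491 CPM elsewhere. In classical monocytes Lgals1 was not called, with ratios of -0.36, -0.27 and -0.31. The Lgals1 calls in B cells (log2 ratios of 0.99, 1.17 and 1.03) turned to -0.45, -0.15 and -0.11 when every cell weighed the same. Lgals9 was called higher in B cells as well (1.26, 1.15 and 0.95), on 11 UMIs in control.

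Lgals3 in classical monocytes was lower than in control with 2DG (log2 ratio -1.20, 95% counting interval -1.23 to -1.17), 2FF (-0.72, -0.75 to -0.70) and anti-PD-L1 (-0.89, -0.92 to -0.87). It was lower in neutrophils as well, with log2 ratios of -1.03, -0.95 and -0.93. In both subsets of monocytes by interferon response the control library was highest, at 2386 CPM against 1000.5 to 1525 CPM in interferon-high and 2052 against 918 to 1182 CPM in interferon-low cells. Macrophages showed no call, with ratios of -0.38, 0.03 and -0.15. Other genes of these monocytes moved alongside. Itgam, the gene of the integrin CD11b, stood at 1085 CPM in control monocytes against 486, 470.5 and 547 CPM, and Ptprc at 845 against 1761, 1622 and 1645 CPM with 2DG, 2FF and anti-PD-L1.

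In CD8 T and Treg cells, RNA of the myeloid gene Itgam was higher in the control library along with Lgals3. The part of RNA from other cells in the Lgals3 calls of lymphocytes was not tested beyond the values that follow. B cells had 237 CPM of Lgals3 in control against 64.1 to 97.1 CPM elsewhere, and CD8 T cells 291 against 107 to 192 CPM. Itgam, which T cells mostly lack, stood at 82.9 CPM in control CD8 T cells against 22.7, 34.5 and 25.7 CPM with 2DG, 2FF and anti-PD-L1, and at 82.5 CPM in control Treg cells against 12.2, 20.1 and 29.1 CPM. Without cells that held at least 3 markers of another lineage, Lgals3 in CD8 T cells was 131 CPM in control and 72.1 to 133 CPM elsewhere. The log2 ratio of 2FF over control then turned from -0.59 to 0.016, and the call with anti-PD-L1 was lost. Treg cells then had 65.5 CPM in control against 41.6 to 81.3 CPM elsewhere, and conventional CD4 T cells 76.0 against 54.8 to 142 CPM. The higher Lgals3 level of control thus held in monocytes, at 2477 CPM against 953 to 1343 CPM, and in neutrophils, at 831 against 327 to 486 CPM, while CD8 T cells of the 2FF library then had as much as those of control. B cells kept a higher value in control, at 56.6 against 15.9 to 34.4 CPM.

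Lgals3bp in classical monocytes was higher than in control by 0.73 with 2DG, 0.71 with 2FF and 0.99 with anti-PD-L1 on the log2 scale. The share of interferon-high cells differed too, at 11.4% of monocytes in control, 16.8% in 2DG, 22.8% in 2FF, 20.1% in anti-PD-L1, 27.2% in 2DG plus anti-PD-L1 and 38.1% in 2FF plus anti-PD-L1. Within interferon-low monocytes Lgals3bp stood at 27.1 CPM in control against 53.4 to 75.8 CPM in the other libraries, and within interferon-high monocytes at 122 CPM against 127 to 184 CPM. Lgals9, which separated the subsets more evenly, was not called in monocytes in any of the 7 comparisons. Neither was Lgals8, with 67.6 CPM in control and 84.4 to 107 CPM elsewhere.

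Between the treated libraries fewer pairs were called. Over anti-PD-L1 alone, 2DG plus anti-PD-L1 had 3 of 62 higher and 3 lower (all genes 4.70% and 5.33%), and 2FF plus anti-PD-L1 1 of 58 higher and 5 lower (3.35% and 4.26%). Over 2DG alone, 2DG plus anti-PD-L1 had 6 of 63 higher and 2 lower (4.86% and 5.14%), and over 2FF alone, 2FF plus anti-PD-L1 had 1 of 60 higher and 8 lower (2.77% and 4.19%). Lgals1 in CD8 T cells, Treg cells, macrophages and classical monocytes was called in none of these 4 comparisons, with log2 ratios from -0.34 to 0.33. Lgals3 in classical monocytes ranged from -0.17 to 0.32. Adding anti-PD-L1 to 2DG went with more Lgals3 in conventional CD4 T cells (177 against 84.8 CPM, log2 ratio 1.02) and Treg cells (116 against 54.2 CPM, 1.03), and the Treg ratio fell to 0.27 without cells that held markers of another lineage. Neutrophils had less Lgals1 in both combinations than with anti-PD-L1 alone, at 33.3 and 44.3 against 101 CPM, on 29, 67 and 103 UMIs.

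**Figure D4:**
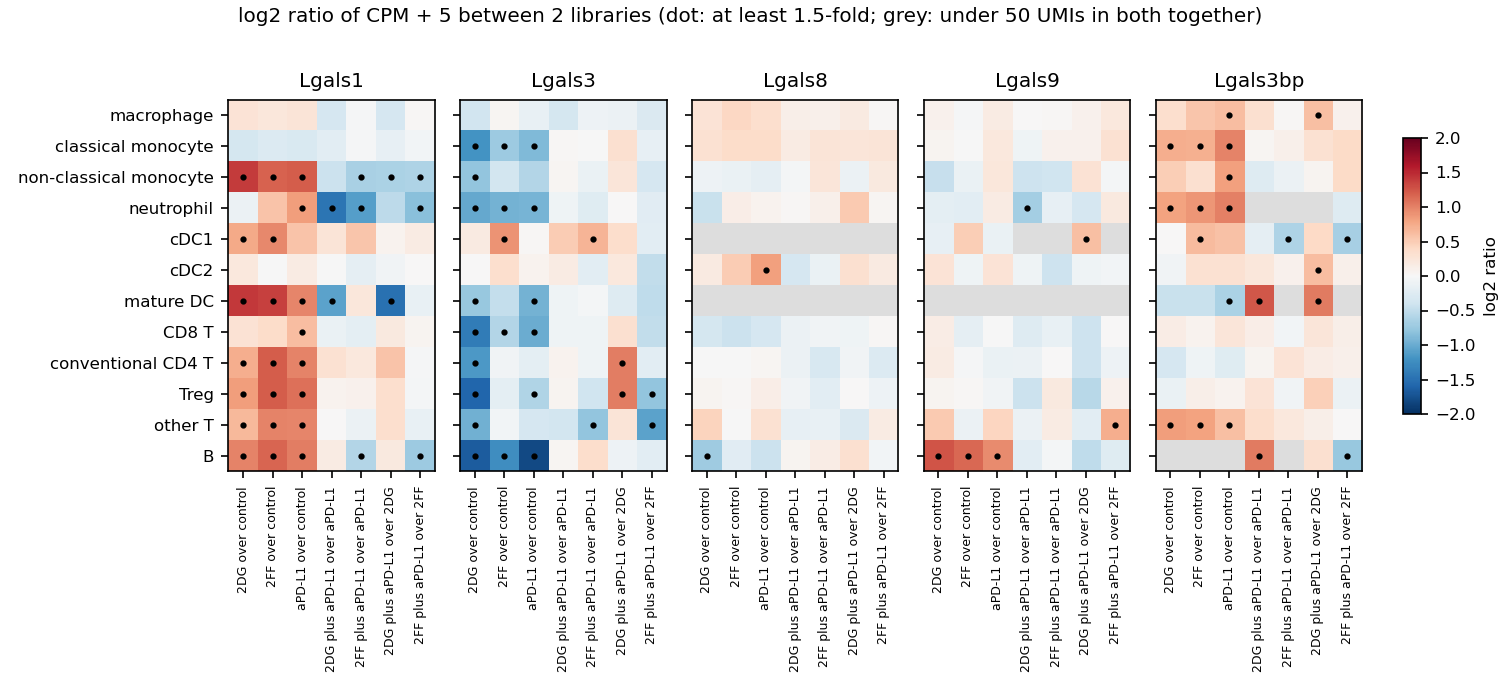
Log2 ratio of CPM + 5 (color scale from -2 to 2) for the 5 genes in the 12 classes (vertical axis) and 7 comparisons between libraries (horizontal axis, aPD-L1 for anti-PD-L1); dots mark ratios of at least 1.5-fold and grey cells have under 50 UMIs in both libraries together. The 3 left columns of each panel share the control library and hold most of the dots of Lgals1, all of them higher, and of Lgals3, all but 1 of them lower.

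Galectins act through what they bind. A list of 15 partners, receptors and vesicle proteins named with galectins, and a list of 6 glycan enzymes that make or cap their ligands were counted in the same way. One partner, Spn, is also a gate marker of non-classical monocytes. Of the partners' gene and class pairs, 12 of 128 were higher and 15 lower with 2DG over control, 24 of 132 and 24 with 2FF, and 19 of 130 and 13 with anti-PD-L1. Among all genes 9.16% were higher and 7.14% lower with 2DG, 11.5% and 8.64% with 2FF, and 9.89% and 7.40% with anti-PD-L1, so the partners' share of higher pairs with 2DG was near that of all genes. Of the glycan enzymes' pairs, 3 of 68 were higher and 9 lower with 2DG, 2 of 65 and 15 with 2FF, and 6 of 67 and 11 with anti-PD-L1. Their share of higher pairs with anti-PD-L1 was near that of all genes. St6gal1, whose sialic acid cap blocks galectin-1, was among the lower ones. It stood at 89.4 CPM in control classical monocytes against 24.8, 23.6 and 29.7 CPM with 2DG, 2FF and anti-PD-L1, and at 113 CPM in control macrophages against 50.1, 52.5 and 62.1 CPM. In CD8 T cells it had 43.6 against 10.4, 7.78 and 8.68 CPM. Control CD8 T cells, only 123, also held more Itgam, and the part of RNA from other cells in their St6gal1 level was not tested. Mgat5, the branching enzyme that raises the number of galectin ligands, was called in Treg cells with 2FF over control, at 153 CPM with 2FF against 250.4 in control, and in no comparison of CD8 T cells, macrophages or classical monocytes.

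Among the partners of CD8 T cells, Lag3 stood at 169 CPM in control, 372 with 2FF and 282 with anti-PD-L1, and Pdcd1, the gene of PD-1, at 154 CPM in control and 260.1 with anti-PD-L1. Over 2DG alone, 2DG plus anti-PD-L1 had more Havcr2 (312 against 204 CPM), Cd44 (571 against 327 CPM), Ctla4 (820.2 against 465 CPM) and Tnfrsf9 (303 against 140.2 CPM) in CD8 T cells, while Lgals1 there had a log2 ratio of 0.20. In the combination the partners had 23 of 151 pairs higher and 6 lower over 2DG, and the glycan enzymes 0 of 74 higher and 4 lower, against 4.86% and 5.14% of all genes. The remaining partner counts, higher and lower, were 13 and 15 of 148 for 2DG plus anti-PD-L1 and 12 and 12 of 141 for 2FF plus anti-PD-L1, each relative to anti-PD-L1, and 5 and 12 of 140 for 2FF plus anti-PD-L1 over 2FF. Those of the glycan enzymes were 0 and 13 of 73, 0 and 8 of 71, and 2 and 5 of 68. The shares among all genes were 4.70% and 5.33%, 3.35% and 4.26%, and 2.77% and 4.19% in the same order. The glycan enzymes' share of higher pairs with 2FF plus anti-PD-L1 over 2FF was near that of all genes. So was their share of lower pairs with 2DG plus anti-PD-L1 over 2DG.

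The genes whose levels most resembled those of Lgals1, Lgals3, Lgals8 and Lgals9 over the 72 sums of 12 classes and 6 libraries were ranked by Pearson's r among 5535 genes, as a description, since sums of a library share its preparation. Lgals1 was most like Nsd2 (0.88), Pfdn1 (0.88) and Kcnn4 (0.87), and Lgals3 most like Ralb (0.92), Cd68 (0.91) and Gm46224 (0.90). Lgals9 was most like 1600014C10Rik (0.90) and Nceh1 (0.90). Lgals8 was most like Slfn8 (0.87), Irf2 (0.85) and Lgals9 (0.84). Between the members, r was 0.67 for Lgals1 with Lgals3bp and -0.15 for Lgals1 with Lgals3.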

How the data were processed

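Single cells of 6 libraries, 1 mouse each, were analysed. The files that the authors deposited hold unnormalized UMI counts, made with Cell Ranger on mm10. The file headers give version 7.0.0 and the submitters' processing notes 3.1.0. Kept were cells of at least 250 genes and at most 5% mitochondrial UMIs. A cell took the class with the highest share of its markers at 1 or more UMI, if at least 3 (2 for keratins) were detected. T cells were split by Cd8a, Cd8b1, Cd4 and Foxp3. Doublets were not called. Sums over the cells of a class in a library gave CPM. Ratios are log2 of CPM + 5. Between classes and subsets, differences of log2(CPM + 5) within the 6 libraries were tested by two-sided exact permutation (sign flips) with Benjamini-Hochberg adjustment. Poisson intervals are exact, at 95%, and cover counting error only. Differences between treatments, of 1 mouse each, were not tested, and no additive model over the layout of treatments was fitted. The study's test over cells treats cells of 1 mouse as replicates and was not used. The members, gene lists and tests were chosen with earlier results of these data known. Named are the members in every class, list genes past 1.5-fold in a class a result turns on, and the 3 genes most like each member. Some items, among them genes this rule would name, are not reported here. Python 3.11.15, numpy 2.4.6, scipy 1.17.1, pandas 2.3.3 and matplotlib 3.10.9 were used, and the steps were checked on simulated data. Coordinates follow GENCODE M21 (GRCm38, the assembly that mm10 names).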

Additional observations from a re-analysis of the deposited data

Results flagged for a closer look

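For some genes and classes the same added treatment was called higher in 1 background and lower in another. These differences between backgrounds were not tested, as each rests on single libraries, and each set includes a ratio over the control library. Adding anti-PD-L1 went with a Lgals1 log2 ratio in non-classical monocytes of 1.20 over control, but -0.63 over 2DG and -0.62 over 2FF. In neutrophils the Lgals1 ratio was 0.83 over control and -0.84 over 2FF, in mature dendritic cells 0.98 over control and -1.50 over 2DG, and in B cells 1.03 over control and -0.73 over 2FF. Lgals3bp in mature dendritic cells had ratios of -0.64 over control and 1.04 over 2DG, on 23 to 34 UMIs a library. Lgals3 in Treg cells had -0.60 over control, 1.03 over 2DG and -0.79 over 2FF. With equal weight of cells, the Lgals1 ratio over control was 0.13 in neutrophils, 0.56 in mature dendritic cells and -0.11 in B cells. The Lgals1 ratio of non-classical monocytes was then -0.47 over 2DG and -0.56 over 2FF. Lgals3bp in mature dendritic cells then had -0.38 over control. Without cells that held markers of another lineage, Lgals3 in Treg cells had -0.57 over control and 0.27 over 2DG. All of these were under 1.5-fold.

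Adding 2DG went with a Lgals1 ratio in mature dendritic cells of 1.42 over control and -1.06 over anti-PD-L1. Adding 2FF went with Lgals1 ratios of 1.17 over control and -0.65 over anti-PD-L1 in non-classical monocytes, and of 1.17 and -0.59 in B cells. Lgals3bp in cDC1 cells had 0.64 over control and -0.61 over anti-PD-L1 with 2FF. With equal weight of cells, these Lgals3bp ratios were 0.021 and -0.18, and the Lgals1 ratio in B cells over control was -0.15. B cells of the control library held 20 Lgals1 UMIs. Without cells that held markers of another lineage, the Lgals1 ratio of non-classical monocytes over anti-PD-L1 was -0.50, also under 1.5-fold.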

How the results depend on the processing

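With 1 mouse per group, no ratio between libraries has a replicate, and leaving out a library is possible only for comparisons within libraries. Leaving out cells with at least 3 markers of another lineage, which removes many cells, lowered the called member pairs from 21 to 13 for 2DG over control, from 22 to 13 for anti-PD-L1 over control and from 6 to 1 for the addition of 2FF to anti-PD-L1. Requiring 200 UMIs tests fewer genes and left 14 calls for anti-PD-L1 over control and 2 of 6 for the addition of 2DG to anti-PD-L1. Neither the pairs tested nor the share of all genes called was recorded under these alternatives. The drops are therefore not read as particular to the members. No neighbour or planned subset test passed under any alternative. All other counts, and the interferon tests that passed (4, or 5 without cells that held markers of another lineage), stayed within 1.5 times under the alternatives run for them (1 more marker per class, 10% mitochondrial UMIs, 500 genes per cell, equal weight of cells, a pseudocount of 1 CPM, centring on the median gene). Without cells that held markers of another lineage, Lgals3 over control reversed to 0.17 in mature dendritic cells with 2DG and to 0.016 in CD8 T cells with 2FF, Lgals1 in B cells with 2FF to -0.049, and Lgals3 in other T cells, for the addition of 2FF to anti-PD-L1, to 0.0718. With equal weight of cells, Lgals1 in B cells reversed to -0.45, -0.15 and -0.11 with 2DG, 2FF and anti-PD-L1 over control. The cause was not tested. Of 648 recomputed values of the 89 called ratios, 599 kept their call, 42 lost it and 7 reversed. Of 90 recomputed values of the 15 subset differences with 1 sign in all libraries, 4 lost that and none reversed. Without cells that held markers of another lineage, 4 subset differences moved by over 1.5 times, to -1.55 for Lgals3 and -0.13 for Lgals9 in cycling CD8 T cells, 1.10 for Lgals3 in Spp1 macrophages and -0.84 for Lgals3 in Treg cells. The neighbouring pairs with 1 sign numbered 12 to 21 with 1 library left out, the 21 being without control, and the subset differences 11 to 14. Shares of cells with a UMI fell in all 60 cases on thinning. Centring moves log2 ratios by -0.14 to 0.20, the range of the median gene. No paired analysis by replicate number was possible because the labels give the groups no shared replicate numbers, while the comparisons within libraries are paired by library.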

Other observations

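Of the galectin genes outside the set, 6 had a row, and Lgals7, an epithelial galectin of skin, was detected in T cells. Conventional CD4 T cells had 35.0 CPM of it in control, 21.2 in 2DG, 42.0 in 2FF, 39.7 in anti-PD-L1, 75.3 in 2DG plus anti-PD-L1 and 38.8 in 2FF plus anti-PD-L1. CD8 T cells had 0 to 1.27 CPM, Treg cells 5.02 to 17.3 CPM and other T cells 0 to 20.8 CPM. Among these T cell classes the conventional CD4 T cells were thus highest in every library. Their UMIs sat in few cells, 9 of 145 in control and 48 of 463 in 2DG plus anti-PD-L1. Pooled over the libraries, 20 fibroblasts had more Lgals7 (71.0 CPM on 33 UMIs) than conventional CD4 T cells (40.3 CPM), and keratin-positive cells had 19.2 CPM. Over all kept cells Lgals7 had 1161 UMIs, Lgalsl 2338, Lgals4 585, Grifin 57, Lgals2 26 and Lgals12 3. These values were looked at after the data had been seen and were not tested.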
